A study of Mus musculus with 4 samples.

Results

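The genes described here encode the transforming growth factor beta (TGF-beta) ligands and the proteins that store, release, bind and restrain them. They are 9 of the 17780 genes in the deposited mouse lung expression table, and they were chosen by symbol: Tgfb1, Tgfb2, Tgfb3, Ltbp1, Itgb6, Tgfbr1, Tgfbr2, Tgfbr3 and Smad7. All 9 were found in the table and all passed the filter of at least 1 FPKM. The study asked what chronic amiodarone, an antiarrhythmic drug with known lung toxicity, does to the mouse lung, and whether co-treatment with dabigatran, an oral inhibitor of thrombin, alters it. C57BL/6 mice received vehicle, amiodarone (300 mg/kg), dabigatran (60 mg/kg) or both drugs at these doses, by mouth 5 times per week, and the labels give 28 days of treatment, while the study's methods name a slightly earlier day for the tissue. By those methods the mice were male, of the substrain C57BL/6J and 6 to 7 weeks old when purchased, so older when the tissue was taken. Whole lung RNA was sequenced in 4 libraries, 1 for each treatment, so no comparison below has a replicate and no p-value is given.

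TGF-beta is made as a precursor whose cut prodomain stays wrapped around the ligand and keeps it latent. Latent TGF-beta binding proteins tie this complex to the matrix, and integrins that grip the prodomain, among them the epithelial integrin that contains the beta 6 chain, pull the ligand free. Free ligand joins the type II receptor to the type I receptor, which phosphorylates SMAD proteins that carry the signal to the nucleus. In the lung the pathway is known for its part in alveolar development, in restraint of immune cells and in scarring, where it drives fibroblasts to make collagen.

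The level of a gene is given in FPKM, which divides the fragments of a gene by transcript length and by sequencing depth and so allows comparison between genes. A ratio of 2 libraries is given with a 95% interval from their estimated reads (exact Clopper-Pearson). The interval covers counting error only, and not the spread between animals or library preparations. A difference is called beyond counting error when this interval does not contain 1, and a fold of at least 1.5 is counted beside it. The libraries held 17498486 to 18903401 estimated reads, and each of the 9 genes had between 616 and 8449 reads in every library. The markers of lung were present, with Sftpc (surfactant protein C) at 19587 to 20385 FPKM and Ager, of alveolar type 1 cells, at 2248 to 2462 FPKM.

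Tgfb1, the most abundant ligand, was at nearly the same level in the 4 libraries, whereas Tgfb2 and Itgb6 were lower in both libraries from amiodarone-treated mice, to 0.558 and 0.668 of vehicle without dabigatran and to 0.570 and 0.605 of dabigatran alone with it. Tgfb3 was also lower in both, to 0.815 and 0.656. The 3 receptors, Ltbp1 and the inhibitor Smad7 differed by at most 1.17-fold in these 4 comparisons.

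The promoter sequences of Tgfb2 and Itgb6, which were lower together, are shown with that of Tgfb1, which was not. Each line is the 250 bases before a RefSeq transcription start on GRCm38.p6, written 5′ to 3′ on the strand of the gene, at chr1:186705990-186706239 (minus strand) for Tgfb2, chr2:60722604-60722853 (minus strand) for Itgb6 and chr7:25686752-25687001 (plus strand) for Tgfb1. The Tgfb2 window lies inside the annotated gene, whose outer end is at 186709697. Capitals mark the motifs searched on both strands.
Tgfb2: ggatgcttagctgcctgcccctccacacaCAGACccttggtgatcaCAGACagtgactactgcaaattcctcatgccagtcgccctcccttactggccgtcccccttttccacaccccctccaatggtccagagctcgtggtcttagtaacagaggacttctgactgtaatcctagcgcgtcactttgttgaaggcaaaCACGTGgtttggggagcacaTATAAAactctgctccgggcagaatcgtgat
Itgb6: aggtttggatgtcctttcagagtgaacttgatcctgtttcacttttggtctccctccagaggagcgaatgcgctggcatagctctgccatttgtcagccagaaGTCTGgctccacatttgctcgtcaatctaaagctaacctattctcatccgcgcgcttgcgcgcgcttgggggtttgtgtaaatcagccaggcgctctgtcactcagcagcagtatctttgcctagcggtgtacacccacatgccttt
Tgfb1: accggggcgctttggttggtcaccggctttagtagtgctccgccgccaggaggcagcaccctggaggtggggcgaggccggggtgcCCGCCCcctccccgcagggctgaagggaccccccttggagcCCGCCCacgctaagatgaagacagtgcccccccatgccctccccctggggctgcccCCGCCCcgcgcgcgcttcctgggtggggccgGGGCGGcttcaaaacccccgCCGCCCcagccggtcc
The Tgfb1 window was 75.2% G or C with 21 CpG pairs and held 5 copies of the GC box GGGCGG, found in 32.7% of all 32851 windows of this length. Tgfb2, at 53.6% G or C with 8 CpG pairs, held a TATA box (TATAAA, in 12.4% of all windows) 26 to 31 bases before the start. It also held an E-box (CACGTG, in 6.02%) 46 to 51 bases before the start, and 2 copies of CAGAC, the core of the SMAD-binding element, in 42.2% of all windows. Itgb6, at 52.0% G or C with 11 CpG pairs, held 1 CAGAC, and no motif searched was shared by these Tgfb2 and Itgb6 windows other than this common one. The window of an alternative Itgb6 start, not printed, at chr2:60673694-60673943 (38.0% G or C, 3 CpG pairs), held none of the motifs. Neither the AP-1 site TGACTCA (4.46% of windows) nor the cAMP response element TGACGTCA (1.55%) was in these 3 windows. The median window had 52.4% G or C and 6 CpG pairs. A match describes the letters and not a bound factor.

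Among the ligands, Tgfb1 (gene ID 21803, chromosome 7 of GRCm38.p6 from 25687002 to 25705077) is the isoform of leukocytes, platelets and endothelium. Its level was 64.1 FPKM in the vehicle library, 67.6 FPKM in the amiodarone library, 67.2 FPKM in the dabigatran library and 65.6 FPKM in the library from mice given both drugs. The highest library exceeded the lowest by a factor of 1.06, the second smallest such range of the 9 genes after that of Smad7. The ratio was 1.06 (0.9984 to 1.12) for amiodarone against vehicle, 1.05 (0.9908 to 1.11) for dabigatran against vehicle, 0.970 (0.918 to 1.02) for the combination against amiodarone and 0.976 (0.924 to 1.03) for the combination against dabigatran. None of these went beyond counting error. The intervals reach up to 1.12-fold and leave out the spread between animals. When the libraries were rescaled by the trimmed mean of M values (TMM), Tgfb1 was beyond counting error at 1.10 (1.04 to 1.16) for amiodarone against vehicle and 0.942 (0.892 to 0.9944) for the combination against amiodarone.

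Tgfb2 (gene ID 21808, chromosome 1 from 186622787 to 186709697) encodes an isoform made chiefly by epithelium and mesenchyme. It was measured at 12.1 FPKM after vehicle and 12.7 FPKM after dabigatran, and at 6.77 FPKM after amiodarone and 7.25 FPKM after both drugs. The libraries without amiodarone were the 2 high ones and those with amiodarone the 2 low ones. Amiodarone against vehicle gave a ratio of 0.558 (0.504 to 0.617), and the combination against dabigatran, which shares neither library, gave 0.570 (0.517 to 0.629). The dabigatran ratios, 1.05 (0.961 to 1.14) against vehicle and 1.07 (0.958 to 1.20) on top of amiodarone, were both within counting error. With 616 to 1092 reads per library, the counting error of Tgfb2 is small beside the amiodarone difference.

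Tgfb3 (gene ID 21809, chromosome 12 from 86056743 to 86079041), an isoform of mesenchyme known from lung and palate development, had 15.7 FPKM in the vehicle and 18.9 FPKM in the dabigatran library, and 12.8 FPKM in the amiodarone and 12.4 FPKM in the combination library. As for Tgfb2, the 2 libraries with amiodarone were the low ones, but dabigatran alone was the highest. The ratio to vehicle was 0.815 (0.740 to 0.897) with amiodarone and 1.20 (1.10 to 1.31) with dabigatran. The combination stood at 0.966 (0.874 to 1.07) of amiodarone and at 0.656 (0.598 to 0.719) of dabigatran. The amiodarone ratio with dabigatran was thus 0.804 (0.705 to 0.918) of the ratio without it. Against vehicle the combination was at 0.788, so the larger fold against dabigatran includes the higher level with dabigatran alone.

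The 3 ligands summed to 91.9 FPKM (vehicle), 98.7 FPKM (dabigatran), 87.2 FPKM (amiodarone) and 85.2 FPKM (combination). Tgfb1 made up 69.7% of this sum with vehicle and 68.0% with dabigatran, against 77.6% with amiodarone and 77.0% with the combination. The share of Tgfb2 was 13.2% and 12.9% in the libraries without amiodarone and 7.77% and 8.51% in those with it. Relative to Tgfb1 in the same library, which removes any scaling of the whole library, Tgfb2 with amiodarone was at 0.529 (0.472 to 0.593) of its vehicle value, and with the combination at 0.584 (0.523 to 0.653) of its dabigatran value. Tgfb3 relative to Tgfb1 was at 0.772 (0.692 to 0.862) and 0.672 (0.604 to 0.747) in the same comparisons. Tgfb2 was lower relative to Tgfb3 as well, at 0.685 (0.597 to 0.786) of vehicle with amiodarone and at 0.870 (0.762 to 0.9935) of dabigatran with the combination.

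**Figure D1:**
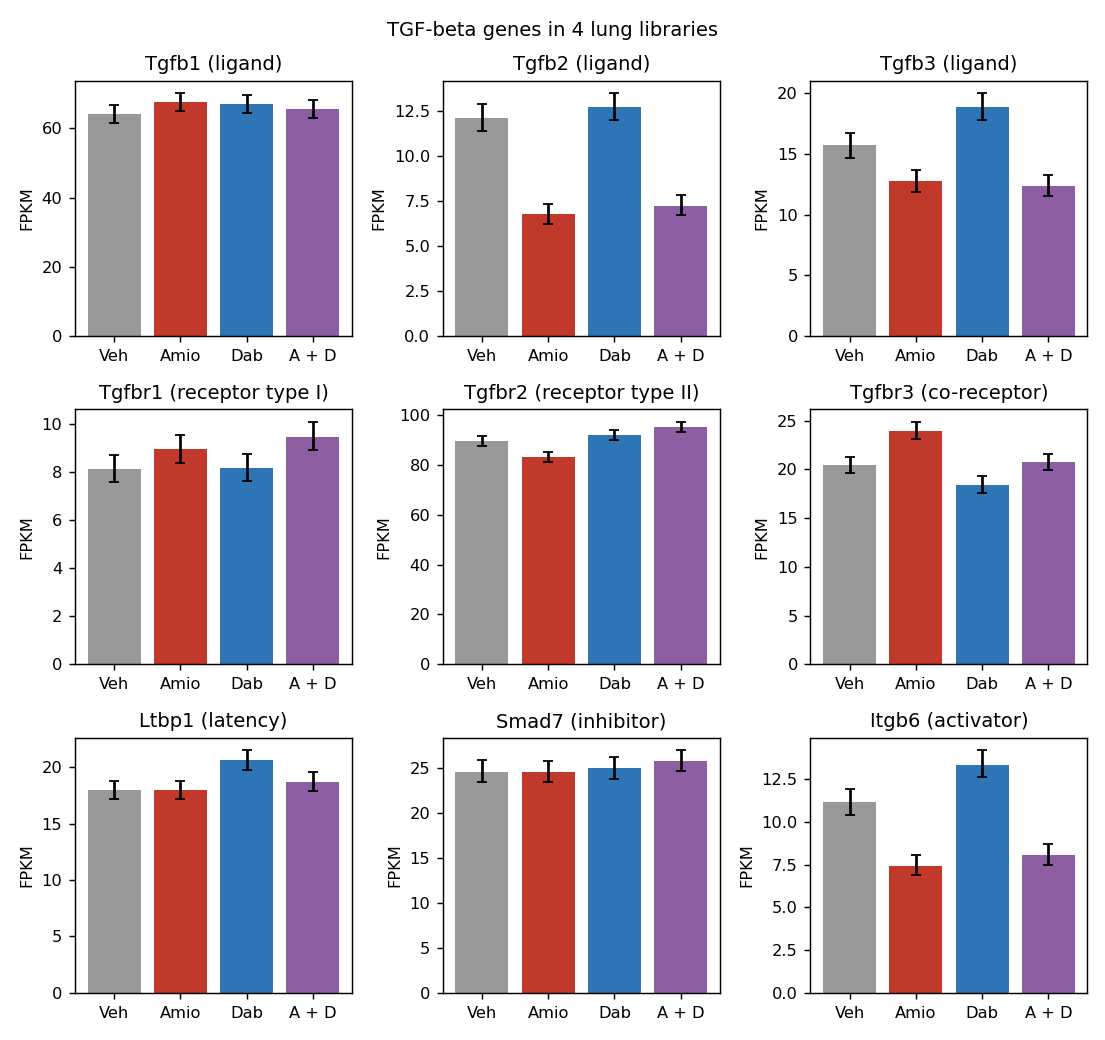
Level (FPKM, linear axis from 0) of each of the 9 TGF-beta genes in the vehicle (Veh), amiodarone (Amio), dabigatran (Dab) and amiodarone + dabigatran (A + D) libraries. Each bar is 1 library and the error bars are exact 95% counting intervals; Tgfb2 is at 6.77 and 7.25 FPKM in the libraries with amiodarone and at 12.1 and 12.7 FPKM in those without, and Itgb6 has the same order, while Tgfb1 lies between 64.1 and 67.6 FPKM.

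Storage and release of the ligand are represented by Ltbp1 and Itgb6. Ltbp1 (gene ID 268977, chromosome 17 from 75005480 to 75392512) encodes a binding protein that anchors latent TGF-beta to fibrillin and fibronectin. Its level was 18.0 FPKM in both the vehicle and the amiodarone library, 20.6 FPKM with dabigatran and 18.7 FPKM with the combination. Dabigatran alone was the highest library, at 1.14 (1.07 to 1.22) of vehicle, and the combination was at 0.909 (0.854 to 0.968) of it. Amiodarone against vehicle (0.999, 0.936 to 1.07) and the combination against amiodarone (1.04, 0.976 to 1.11) lay within counting error.

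Itgb6 (gene ID 16420, chromosome 2 from 60598292 to 60722603) encodes the integrin beta 6 chain, which is restricted to epithelium and activates latent TGF-beta. In the order of its levels, the same as for Tgfb2, it had 13.4 FPKM with dabigatran, 11.2 FPKM with vehicle, 8.08 FPKM with both drugs and 7.45 FPKM with amiodarone. The ratio of amiodarone to vehicle, 0.668 (0.603 to 0.740), missed the fold of 1.5 narrowly and passed it when reads were scaled to the library total (0.663, 0.599 to 0.734). The combination was at 0.605 (0.550 to 0.666) of dabigatran, and dabigatran at 1.20 (1.10 to 1.31) of vehicle. On top of amiodarone the ratio was 1.08 (0.974 to 1.21), within counting error. Relative to Tgfb2 in the same library Itgb6 stood at 0.919 with vehicle and between 1.05 and 1.11 in the 3 treated libraries.

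The receptors differed less. Tgfbr1 (gene ID 21812, chromosome 4 from 47353222 to 47414926), the type I receptor kinase, was the least abundant of the 9 genes by its mean level, with 8.12 FPKM in the vehicle library and 8.19 FPKM in the dabigatran library, and with 8.95 FPKM in the amiodarone library and 9.47 FPKM in the combination library. The 2 libraries with amiodarone were the higher ones. Amiodarone against vehicle gave 1.10 (1.0025 to 1.21), which is at the edge of counting error and within it when reads were scaled to the library total, and the combination against dabigatran gave 1.16 (1.05 to 1.27). Dabigatran against vehicle (1.01, 0.914 to 1.11) and the combination against amiodarone (1.06, 0.968 to 1.16) lay within it.

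Tgfbr2 (gene ID 21813, chromosome 9 from 116087695 to 116175363), the type II receptor that binds the ligand first, was the most abundant gene of the group. Its level was 83.0 FPKM with amiodarone, 89.3 FPKM with vehicle, 91.9 FPKM with dabigatran and 95.2 FPKM with the combination, on 7286 to 8449 reads. Amiodarone alone was the lowest library and the combination the highest. The ratio was 0.929 (0.899 to 0.959) for amiodarone against vehicle, 1.15 (1.11 to 1.18) for the combination against amiodarone and 1.04 (1.0044 to 1.07) for the combination against dabigatran. Dabigatran against vehicle, at 1.03 (0.9960 to 1.06), was within counting error. The type II receptor exceeded the type I receptor 11.0-fold in the vehicle, 9.27-fold in the amiodarone, 11.2-fold in the dabigatran and 10.1-fold in the combination library. This excess was lower with amiodarone, at 0.843 (0.763 to 0.930) of vehicle, and with the combination, at 0.896 (0.813 to 0.987) of dabigatran.

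Tgfbr3 (gene ID 21814, chromosome 5 from 107106567 to 107289629) encodes betaglycan, a co-receptor without kinase activity that presents ligand, TGF-beta 2 above all, to the type II receptor. Its level was 24.0 FPKM with amiodarone, 20.7 FPKM with the combination, 20.4 FPKM with vehicle and 18.4 FPKM with dabigatran. Amiodarone alone was highest and dabigatran alone lowest. All 4 comparisons went beyond counting error, with ratios of 1.17 (1.11 to 1.24) for amiodarone and 0.903 (0.849 to 0.960) for dabigatran against vehicle, and of 0.865 (0.818 to 0.914) against amiodarone and 1.12 (1.06 to 1.19) against dabigatran for the combination. Tgfbr3 and Tgfb2 thus stood on opposite sides of 1 in both amiodarone comparisons.

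Smad7 (gene ID 17131, chromosome 18 from 75367365 to 75395935) encodes the inhibitory SMAD that TGF-beta itself induces and that blocks the type I receptor. It was at 24.6 FPKM in the vehicle and amiodarone libraries alike, at 24.99 FPKM with dabigatran and at 25.8 FPKM with the combination, a range of 1.05-fold. The 4 ratios lay between 1.0 (0.934 to 1.07), for amiodarone against vehicle, and 1.05 (0.983 to 1.12), for the combination against amiodarone, all within counting error.

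With vehicle, the order of levels was Tgfbr2, Tgfb1, Smad7, Tgfbr3, Ltbp1, Tgfb3, Tgfb2, Itgb6 and Tgfbr1. Of the neighbours in this order, only Tgfb2 and Itgb6 had overlapping counting intervals. With amiodarone, Smad7 and Tgfbr3 overlapped, as did Itgb6 and Tgfb2, which had moved below Tgfbr1. With dabigatran alone the overlapping neighbours were Ltbp1 with Tgfb3, Tgfb3 with Tgfbr3, and Itgb6 with Tgfb2, and with the combination they were Itgb6 and Tgfb2.

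Across the 9 genes, 1 (Tgfb2) differed by at least 1.5-fold between amiodarone and vehicle, where 12.7% of the 13402 genes tested did. Beyond counting error, 2 (Tgfbr1 and Tgfbr3) were higher against 19.6% of all genes, and 4 (Tgfb2, Tgfb3, Tgfbr2 and Itgb6) were lower against 30.1%. The median log2 ratio of the 9 genes was 0.00, beside -0.05 for all genes. These shares depend on depth, and among genes with at least 500 reads in both libraries, as the 9 genes have, 5.34% reached 1.5-fold. Of those deeper genes 24.9% were higher and 31.2% lower beyond counting error.

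For dabigatran against vehicle none of the 9 genes reached 1.5-fold, against 2.97% of 13373 genes. Tgfb3, Ltbp1 and Itgb6 were higher beyond counting error, which is 3 of 9 against 15.2% of all genes, and Tgfbr3 was lower, 1 of 9 against 13.4%. Among genes with at least 500 reads in both libraries these shares were 20.9% and 16.1%. The combination against amiodarone also gave 0 of 9 at 1.5-fold, against 4.53% of 13261 genes. Beyond counting error Tgfbr2 was higher (1 of 9, 21.2% of all genes) and Tgfbr3 lower (1 of 9, 15.0%). At 500 reads or more in both libraries the shares were 23.1% and 20.9%. The medians of the 9 genes were 0.07 in both comparisons, beside 0.00 and 0.03 for all genes.

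Between the combination and dabigatran, Tgfb2, Tgfb3 and Itgb6 were lower by at least 1.5-fold, 3 of 9 against 8.83% of 13379 genes in either direction. Beyond counting error, Tgfbr1, Tgfbr2 and Tgfbr3 were higher (3 of 9, against 19.5%) and Tgfb2, Tgfb3, Ltbp1 and Itgb6 were lower (4 of 9, against 23.5%). The median log2 ratio was -0.03, beside -0.01 for all genes. Of genes with at least 500 reads in both libraries, 3.36% reached 1.5-fold, and 23.2% were higher and 28.5% lower beyond counting error. Comparisons with a library in common are not independent. The 2 amiodarone comparisons (against vehicle, and combination against dabigatran) share no library, nor do the 2 dabigatran comparisons (against vehicle, and combination against amiodarone).

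**Figure D2:**
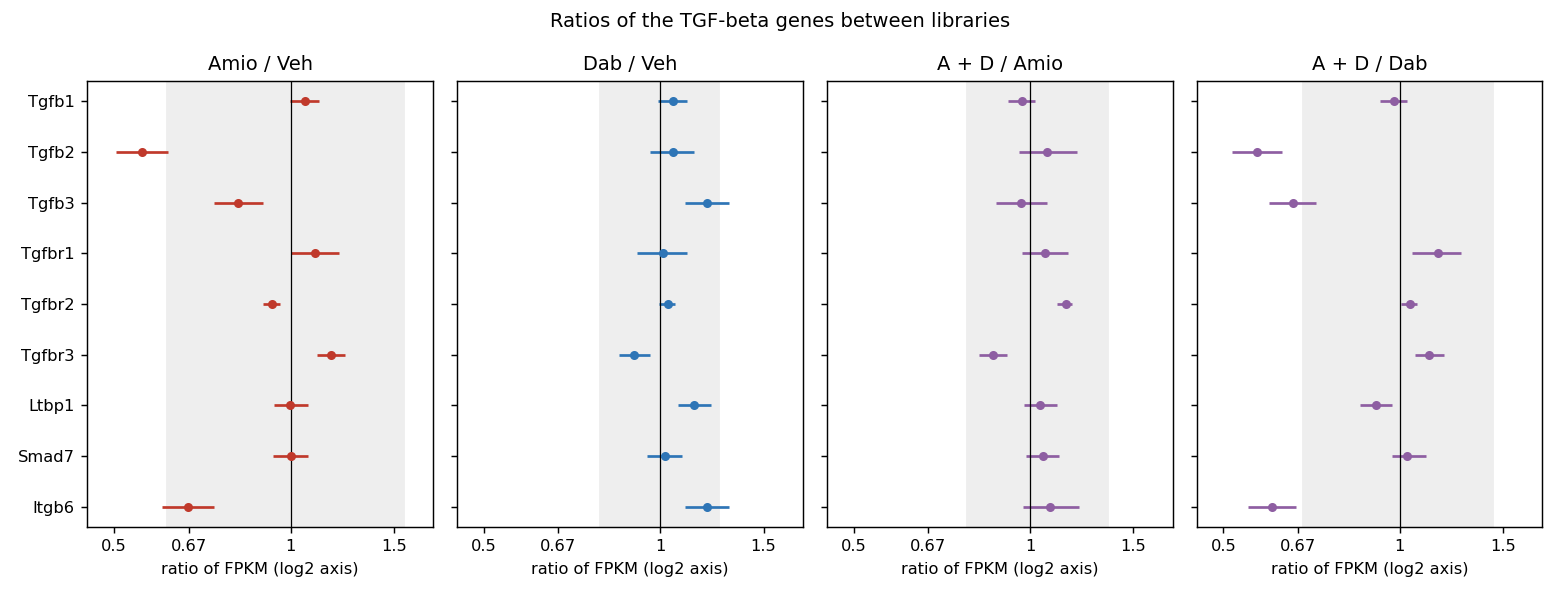
Ratio of FPKM (log2 axis) for the 9 TGF-beta genes in the 4 comparisons, with exact 95% counting intervals as bars; the grey band holds the central 90% of all genes tested. Tgfb2 lies left of the band in both amiodarone comparisons (0.558 and 0.570), Tgfb3 and Itgb6 lie left of it in the combination against dabigatran (0.656 and 0.605), and in the other 2 comparisons all 9 genes lie inside it.

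The level of Tgfb2 over the 4 libraries was most like that of Rasgrp3 (21.1, 12.2, 21.9 and 12.6 FPKM with vehicle, amiodarone, dabigatran and both), Palld (24.5, 14.8, 26.2 and 16.4 FPKM) and G0s2 (67.2, 38.5, 72.2 and 39.5 FPKM). Likeness was the distance between log2(FPKM + 1) profiles centred over the 4 libraries, 0.0372, 0.0882 and 0.0889 for these genes, and 6 of 12728 genes came within 0.1. For Tgfb1 the nearest were Rab3il1, Fignl2 and Crem, but 1627 genes came within 0.1 of its nearly level profile.

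Around these genes, 63 others of the pathway were examined in 5 lists, and 61 had at least 1 FPKM in a library of each comparison. With amiodarone against vehicle 4 were higher and 6 lower by at least 1.5-fold (all genes 12.7% in either direction), and 20 were higher and 21 lower beyond counting error (all genes 19.6% and 30.1%), around a median log2 ratio of 0.01. With dabigatran against vehicle none reached 1.5-fold (all genes 2.97%), and 29 were higher and 6 lower beyond counting error (median 0.08), where the shares of all genes were 15.2% and 13.4%, and 20.9% and 16.1% of genes with at least 500 reads in both libraries. In the combination 1 exceeded its amiodarone level by 1.5-fold and 2 fell short of it by as much (all genes 4.53%, median 0.00). Beyond counting error 12 were higher in the combination than with amiodarone and 15 lower (all genes 21.2% and 15.0%). Set against dabigatran, 3 were higher and 7 lower at 1.5-fold (all genes 8.83%), and 9 were higher and 31 lower beyond counting error (all genes 19.5% and 23.5%, median -0.11). Among genes with at least 500 reads in both libraries, the shares past 1.5-fold were smaller. They were 5.34% for amiodarone against vehicle, and 1.03% and 3.36% for the combination against amiodarone and dabigatran. The pathway lists hold genes above and below this depth. The counts of single lists below are to be read against the same shares.

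Latency and activation genes (16, of which 14 were tested, Itgb8 and Plg being under 1 FPKM) included 2 that were at least 1.5-fold lower with amiodarone than with vehicle and 3 that were so between the combination and dabigatran. Thbs1, encoding thrombospondin 1, which activates latent TGF-beta and is stored in platelets, had 64.7 FPKM in the vehicle, 38.5 FPKM in the amiodarone, 77.9 FPKM in the dabigatran and 26.6 FPKM in the combination library. Its ratio of 0.341 (0.327 to 0.356) for the combination against dabigatran was the smallest of the pathway genes tested in that comparison. Ltbp3 (56.4, 36.8, 59.5 and 36.5 FPKM in the same order) and Ltbp4 (226, 157, 226 and 136 FPKM), binding proteins of latent TGF-beta like Ltbp1, were lower in both libraries with amiodarone, whereas Ltbp1 was not lower with amiodarone alone. Itgb3, the chain of a platelet and endothelial integrin, was at 7.73, 5.88, 9.61 and 10.2 FPKM, and the combination exceeded amiodarone 1.74-fold (1.58 to 1.92). The sum of 6 platelet markers, led by Ppbp, had the same order of libraries as Itgb3, at 87.4, 53.2, 93.4 and 124 FPKM, although Pf4 alone was lower with dabigatran than with vehicle (0.799, 0.664 to 0.961), with all 6 higher in the combination than with amiodarone, where Thbs1 was lower. Their part in the Itgb3 values was not tested.

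None of the 8 other receptors of the family reached 1.5-fold. Eng, the endothelial co-receptor endoglin and the most abundant of them, had 216 FPKM in the vehicle library and 301, 283 and 279 FPKM in the amiodarone, dabigatran and combination libraries. With amiodarone 5 of the 8 were higher than with vehicle beyond counting error and 1 was lower (median log2 ratio 0.22). The 10 endothelial markers, Cldn5 the most abundant with vehicle, summed to 1419 FPKM in the vehicle library and to 1560, 1681 and 1351 FPKM in the amiodarone, dabigatran and combination libraries. With amiodarone against vehicle 7 were higher and 2 lower beyond counting error (all genes 19.6% and 30.1%), and Cldn5 was a lower one (0.906, 0.876 to 0.937). With dabigatran all 10 were higher than with vehicle (all genes 15.2%). In the combination all 10 were lower than with dabigatran (all genes 23.5%) and 8 lower than with amiodarone (15.0%), beyond counting error.

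Of the 10 signal transducers, Smad9, a SMAD of the bone morphogenetic protein branch, was the only one past 1.5-fold, at 2.96, 1.92, 4.12 and 2.29 FPKM in the vehicle, amiodarone, dabigatran and combination libraries. Smad4, the common partner of receptor-activated SMADs and the most abundant, was at 23.9 to 25.1 FPKM and within counting error in all 4 comparisons. Among 13 inhibitors Fst, encoding the activin-binding protein follistatin, was the only one past 1.5-fold. It had 1.42 FPKM (vehicle) and 1.15 FPKM (dabigatran) without amiodarone, and 4.82 FPKM (amiodarone) and 4.11 FPKM (combination) with it, a ratio of 3.39 (2.56 to 4.56) for amiodarone against vehicle and 3.57 (2.62 to 4.95) for the combination against dabigatran. The most abundant inhibitor, Dcn (the matrix proteoglycan decorin), was at 114, 85.7, 111 and 93.4 FPKM.

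Of the 20 textbook target genes of TGF-beta, 10 were higher and 8 lower beyond counting error with amiodarone than with vehicle (median log2 ratio 0.08). Past 1.5-fold, Cdkn1a (cell cycle inhibitor p21; 34.5 FPKM with vehicle and 94.0 with amiodarone), Lox (lysyl oxidase, which crosslinks collagen; 13.6 and 24.4) and Tgfbi (a matrix protein; 29.5 and 48.3) were higher. Col3a1 (a fibrillar collagen; 95.6 and 47.6 FPKM), Acta2 (smooth muscle actin; 181 and 99.9) and Tagln (transgelin of smooth muscle; 160 and 98.4) were lower.
With dabigatran alone 13 of the 20 were higher than with vehicle beyond counting error and 3 were lower, none by 1.5-fold (median log2 ratio 0.30), beside 15.2% higher and 13.4% lower of all genes and 20.9% and 16.1% of genes with at least 500 reads in both libraries. In the combination, Cdkn1a (62.2 FPKM) and Ccn2 (connective tissue growth factor; 89.2 FPKM with amiodarone and 55.6 with both) were lower than with amiodarone by at least 1.5-fold, at 0.662 (0.627 to 0.699) and 0.623 (0.592 to 0.655). Against dabigatran, the combination had Cdkn1a at 1.78 and Tgfbi at 1.86, and Col3a1 at 0.495 (0.480 to 0.510) and Col1a2, the partner chain of collagen I, at 0.619 (0.600 to 0.638).

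**Figure D3:**
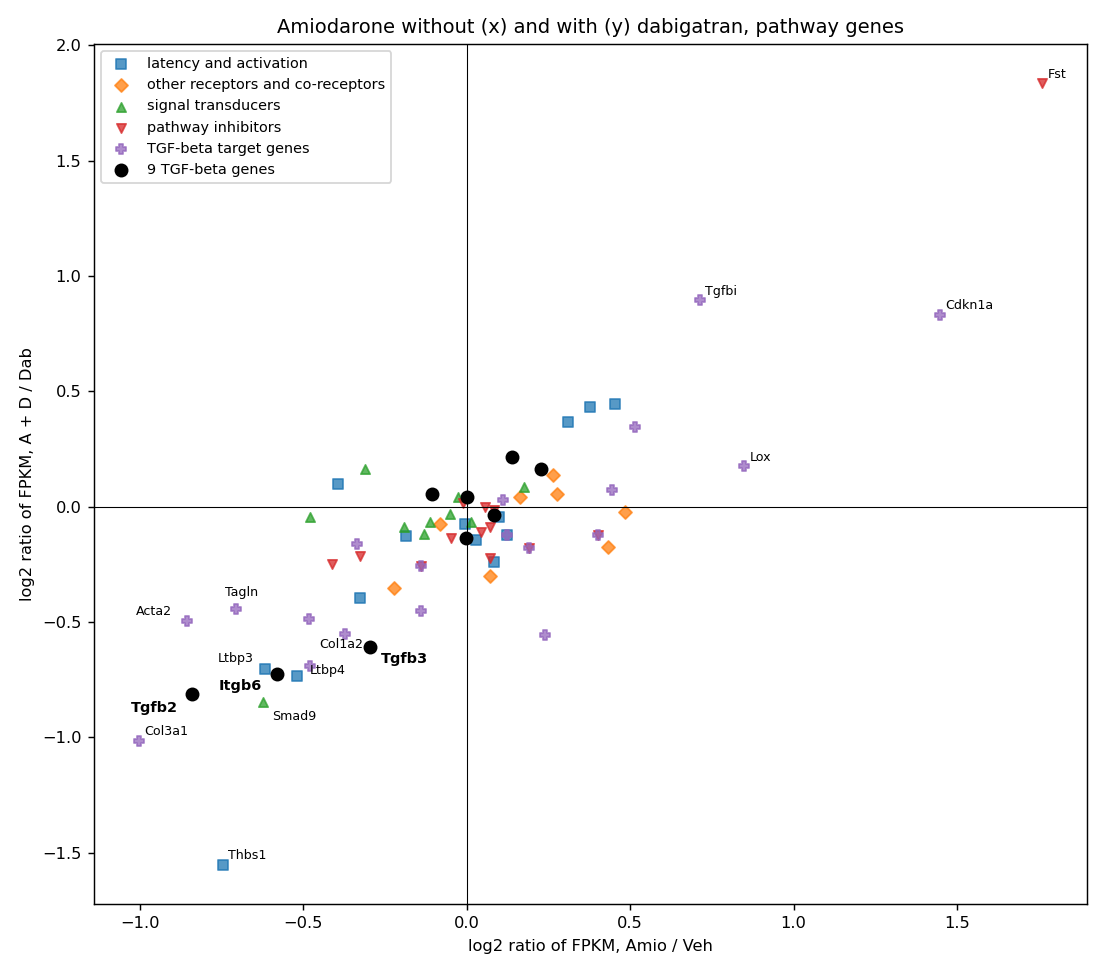
Log2 ratio of FPKM for amiodarone against vehicle (x axis) and for the combination against dabigatran (y axis), comparisons that share no library, for the 9 TGF-beta genes (black) and the pathway genes reported here with at least 1 FPKM. Names are given for genes past 1.5-fold in either comparison and for Tgfb2, Tgfb3 and Itgb6. Tgfb2, Tgfb3 and Itgb6 lie at the lower left with Thbs1, Ltbp3, Ltbp4, Smad9, Col3a1, Col1a2, Acta2 and Tagln. Fst lies at the upper right (ratios of 3.39 and 3.57).

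The make-up of the tissue, as far as marker genes show it, differed between these libraries. In bulk tissue, fewer cells of a type and less RNA per cell cannot be told apart. Smooth muscle markers (5) summed to 554, 348, 524 and 378 FPKM in the vehicle, amiodarone, dabigatran and combination libraries, the order used for the sums that follow, and all 5 were lower beyond counting error in both amiodarone comparisons. Fibroblast markers (11) summed to 2217, 1913, 2138 and 2074 FPKM, a sum led by Inmt at 1337 to 1514 FPKM, with 9 of 11 lower beyond counting error with amiodarone than with vehicle (all genes 30.1%) and 8 of 11 in the combination than with dabigatran (23.5%). These lists share Acta2, Tagln, Col1a1, Col1a2, Col3a1 and Dcn with the pathway lists. On the log2 scale Tgfb2 was 0.84 below vehicle with amiodarone and the mean of the fibroblast markers 0.36 below, and of the smooth muscle markers 0.60 below. In the combination the values were 0.74, 0.30 and 0.54 below vehicle. Mesothelial markers (5, Upk3b the most abundant) summed to 121, 68.9, 123 and 129 FPKM, so they were low with amiodarone alone and not in the combination, where Tgfb2 was low as well. Which of these cells contributed to the Tgfb2 and Tgfb3 values was not tested.

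Itgb6 is an epithelial gene, and the summed alveolar markers were not lower with amiodarone. Type 1 markers (6) summed to 3390, 3502, 3461 and 3670 FPKM, a sum led by Ager. Type 2 markers (7) summed to 25633, 26193, 25113 and 27052 FPKM, a sum led by Sftpc. Single markers went both ways beyond counting error with amiodarone against vehicle. Of the type 1 markers 4 were higher and 1 lower, and of the type 2 markers 5 were higher and 2 lower. The shares of all genes were 19.6% and 30.1%. Airway markers (6), a sum made up mostly by Scgb1a1, were at 130950, 78298, 105151 and 102414 FPKM, and 5 of 5 tested were lower beyond counting error with amiodarone than with vehicle and in the combination than with dabigatran. Unlike Itgb6, the airway sum was lower with dabigatran alone than with vehicle. The part of airway cells in the Itgb6 values was not tested.

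Tgfb1 is expressed by leukocytes, and the summed macrophage and neutrophil markers differed far more between the libraries than Tgfb1 itself. The part of these cells in the Tgfb1 values was not tested. Macrophage markers (13, Lyz2 the most abundant) summed to 3657, 5914, 3980 and 5887 FPKM. With amiodarone against vehicle 11 of 13 were higher beyond counting error and 1, Ear2, was lower (0.629, 0.559 to 0.707), beside 19.6% and 30.1% of all genes. The 9 neutrophil markers, led by S100a9, summed to 114, 615, 101 and 438 FPKM, and all 7 that were tested were higher with amiodarone than with vehicle. T lymphocyte markers (5, Cd3e the most abundant) were low throughout at 15.1 to 16.8 FPKM in sum. Cardiac muscle markers (5, Actc1 the most abundant) summed to 1196, 642, 853 and 591 FPKM, lower than vehicle in every treated library. Their part in the values of the TGF-beta genes was not tested. No marker of the 12 lists was at 0 in every library.

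**Figure D4:**
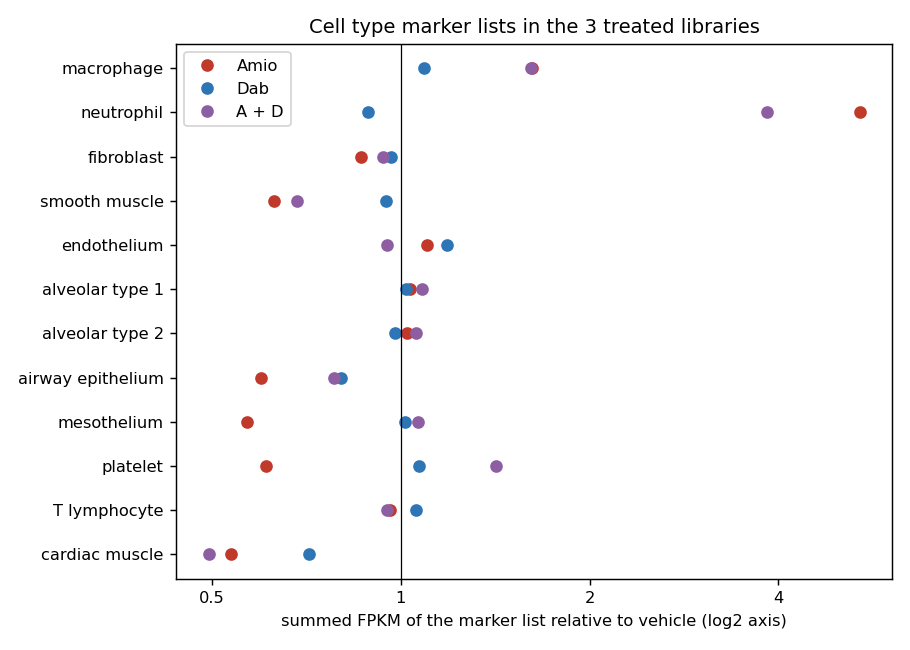
Summed FPKM of 12 lists of cell type markers in the amiodarone (Amio), dabigatran (Dab) and amiodarone + dabigatran (A + D) libraries, relative to the vehicle library (log2 axis, vertical line at 1); each point is 1 library. Neutrophil and macrophage markers lie right of the line in both libraries with amiodarone, smooth muscle markers lie left of it in both (0.629 of vehicle with amiodarone), and the alveolar lists lie close to it.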

How the data were processed

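Poly(A) RNA of left lung tissue was sequenced on a DNBseq platform in 4 libraries. The authors mapped reads to GRCm38.p6 with HISAT and to reference genes with Bowtie2 and ran RSEM. Per gene and library, the authors deposited an estimated count and a normalized value. The deposited unit is not named and was read as FPKM, since reads per unit value differed between libraries only by their total reads. A further 8 columns of means over libraries of different groups were not used. Whether reads were counted by strand is not given in the sources used here. Of the gene IDs, 17669 (99.4%) matched RefSeq, the source of coordinates and promoters; 6 of the 9 genes have a promoter entry.

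Groups came from the labels. Ratios are of deposited FPKM, tested where 1 of the 2 libraries reached 1 FPKM. Intervals (95%, exact) used deposited estimated counts rounded to whole reads; a count of 0 allows up to 3 reads, at most 1.71e-05% of a library. Intervals of ratios of 2 ratios used a normal approximation on the log scale. Sequenced fragments are not independent molecules. The script was tested on simulated data. The 9 genes, the 5 pathway lists and the 12 marker lists were chosen with earlier results of these data known, so no list is independent support. The genes named are the 9, the genes of each pathway list past 1.5-fold, the most abundant gene of each list, and the 3 genes nearest in profile to Tgfb1 and to Tgfb2, the gene with the widest range. A single pathway gene that met this rule is counted in its list but not reported by name. Alternatives were rescaling by the median ratio and by TMM (edgeR 4.0.16, R 4.3.3), reads scaled to the library total, and pseudocounts of 1 and 0.1. Others were filters of 5 FPKM or none, differences of at least 1.25-fold and of 2-fold, and a 99% interval. A background of genes with at least 500 reads and the comparison of the combination with vehicle were added after seeing the data. Python 3.11.15, numpy 2.4.6, pandas 2.3.3 and scipy 1.17.1 were used.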

Additional observations from a re-analysis of the deposited data

Results flagged for a closer look

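Tgfbr2 was lower with amiodarone than with vehicle (0.929, 0.899 to 0.959) and higher with the combination than with dabigatran (1.04, 1.0044 to 1.07), which puts its amiodarone ratio on opposite sides of 1 without and with dabigatran. The ratio of these ratios was 1.12 (1.07 to 1.17, counting error only). Its interval also excluded 1 for Tgfb3 (0.804, 0.705 to 0.918), Ltbp1 (0.910, 0.832 to 0.9949) and Tgfb1 (0.925, 0.856 to 0.9996). For the remaining genes the interval contained 1. With 1 library per treatment none of these differences was tested. After TMM rescaling the Tgfbr2 ratios were 0.966 (0.935 to 0.9984) and 1.05 (1.02 to 1.08).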

How the results depend on the processing

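No ratio of the 9 genes beyond counting error changed direction under the 5 rescalings and pseudocounts run, and 178 of 180 values moved less than their counting interval; the exceptions were Tgfbr2 for amiodarone against vehicle, at -0.06 by median ratio and -0.05 by TMM in place of -0.11. Counts that moved by over 1.5 times were these. The number of the 9 genes past the fold for amiodarone against vehicle was 2 with reads scaled to the library total, 2 for differences of at least 25% and 0 at 2-fold, and for the combination against dabigatran it was 0 at 2-fold. Higher genes for amiodarone against vehicle numbered 1 with reads scaled to the library total and with the 99% interval, and lower genes for the combination against amiodarone numbered 2 by median ratio and by TMM, where Tgfb1 joined Tgfbr3. The share of all genes past 1.5-fold without a filter was 24.2% for amiodarone and 15.2% for dabigatran against vehicle, and 16.8% and 20.8% for the combination against amiodarone and dabigatran. With a filter of 5 FPKM it was 0.768% for dabigatran against vehicle and 2.35% and 5.77% for the combination against amiodarone and dabigatran. Among genes with at least 500 reads it was 5.34%, 0.207%, 1.03% and 3.36% in the order amiodarone and dabigatran against vehicle, then combination against amiodarone and dabigatran. These settings change by construction which genes are tested. Without a filter 2 pathway genes passed 1.5-fold for dabigatran against vehicle and 5 for the combination against amiodarone, Itgb8 and Plg then being included. No paired analysis was possible because each treatment has 1 library. Depth limits single ratios of the 9 genes little, and the absence of replicates limits every comparison.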
